A study of Mus musculus with 4 samples.

Results

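The genes described here are 10 genes of the lung endothelium and its capillaries, *Cdh5*, *Pecam1*, *Cldn5*, *Kdr*, *Tek*, *Aplnr*, *Car4*, *Ednrb*, *Plvap* and *Vwf*. They were chosen by name, from what is known of each gene in vessels of several kinds, and are 10 of the 49315 genes of the count table. Endothelial cells line the blood vessels and hold together through junctions made of VE-cadherin (*Cdh5*), PECAM-1 (*Pecam1*) and claudin-5 (*Cldn5*). In the alveolar wall of the mouse, general capillary cells, which can divide and renew the bed and carry the apelin receptor (*Aplnr*), lie beside aerocytes, large thin cells of the gas exchange surface that are rich in *Car4* and *Ednrb*. Larger vessels store von Willebrand factor (*Vwf*), and *Plvap* is found in many capillaries and veins.

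RNA was sequenced from group 2 innate lymphoid cells (ILC2s), lymphocytes that make type 2 cytokines, which were sorted from mouse lungs and kept in culture with IL-2. The 4 groups, with 1 library each, were wild-type mice given phosphate-buffered saline (PBS-WT), Hps1-/- mice given saline (PBS-HPS1), wild-type mice given bleomycin (BLEO-WT) and Hps1-/- mice given bleomycin (BLEO-HPS1). Bleomycin is a drug that injures the lung and is used to bring on fibrosis in mice. Mice that lack *Hps1*, which encodes a subunit of a complex needed to form lysosome-related organelles, are a model of Hermansky-Pudlak syndrome, and all cells of these mice carry the defect. The sort kept cells without lineage antigens that carried Thy1.2, ICOS and the IL-33 receptor T1/ST2, and none of its lineage antibodies is directed at an antigen particular to endothelium. The labels do not give age, sex, the route of bleomycin or the number of mice behind a library. The study's methods name an age and a peritoneal route for its repeated bleomycin protocol, a tracheal route for another, and animals of both sexes, without tying any of these to the sequenced libraries.

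The libraries held between 72513619 and 87638154 reads. *Hps1* was at 38.3 CPM in PBS-WT and 16.6 in PBS-HPS1, at 48.4 in BLEO-WT and at 21.3 in BLEO-HPS1, so its level was lower in both Hps1-/- libraries. CPM, the unit of level used here, is a read count relative to the library size after scaling by TMM factors. The sort genes *Icos*, *Il1rl1* and *Thy1* were present in each library, at 9.35 to 23.3, 3.45 to 5.94 and 68.7 to 184 CPM per kilobase of exons. *Cdh5* per kilobase was 1.65 times the level of *Icos* in PBS-WT and 1.68 times in PBS-HPS1, and with bleomycin 2.32 times in BLEO-WT and as much as 4.44 times in BLEO-HPS1. *Icos* itself was lower with bleomycin, at 15.0 and 9.35 CPM per kilobase against 23.3 and 22.6 with saline (wild-type first). *Cdh5* stayed between 34.7 and 41.5 CPM per kilobase. It was 6.41 to 12.0 times the level of *Il1rl1*. In each library it was below *Thy1*, which was highest in BLEO-HPS1 (184). Thus *Cdh5* lay above *Icos* and *Il1rl1* but below *Thy1* in libraries labelled as ILC2s. In each of these libraries all 10 endothelial genes lay above the minimum of 1 CPM. The BLEO-HPS1 library stood apart from the other 3, and its ratios to PBS-HPS1 moved with the GC content and length of the transcripts. Ratios after a loess correction for both are therefore given beside the uncorrected ones of the 10 genes, and for the other gene lists the counts past 2-fold are given with and without it.

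Summed over the 10 genes, the saline libraries held 81248 (PBS-WT) and 96247 (PBS-HPS1) reads and the bleomycin libraries 81108 (BLEO-WT) and 89414 (BLEO-HPS1). These were 0.112, 0.124, 0.0925 and 0.115% of all reads. Where 4 values follow one another in this way, the saline libraries come first and, within each treatment, wild-type comes before Hps1-/-. After scaling, the sums were 1042, 972, 1034 and 1415 CPM. The sum was highest in BLEO-HPS1, and the other 3 libraries lay close together. In such a bulk sample, fewer cells of a type and less RNA per cell cannot be told apart. With 1 library per group no difference between conditions has a replicate check and none was tested. A gene is said to have risen or fallen where its ratio was at least 2-fold, and the intervals, exact Clopper-Pearson intervals at 95%, cover counting error only.

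**Figure D1:**
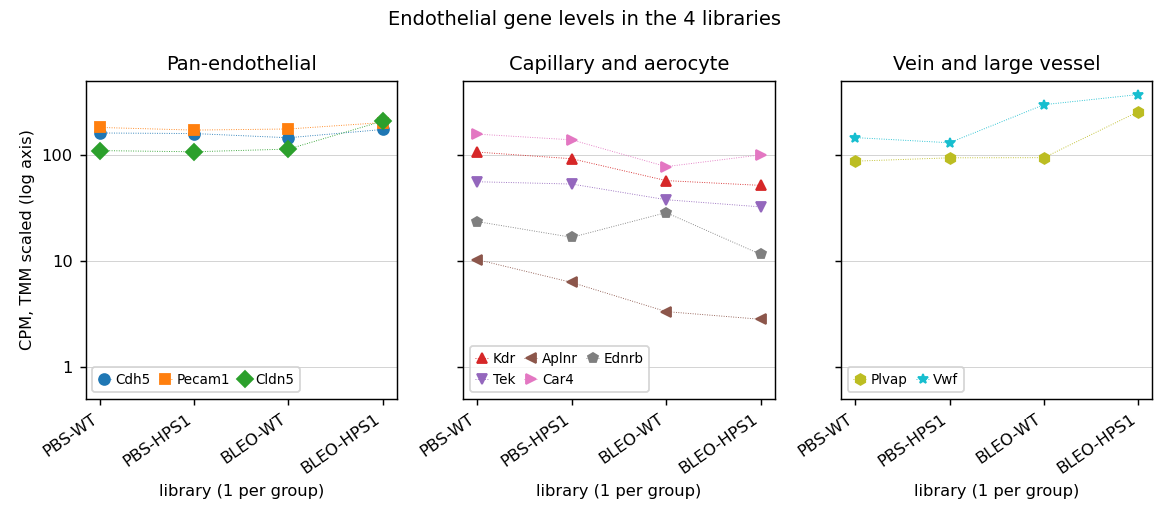
Level of each of the 10 endothelial genes in the 4 libraries, in TMM-scaled CPM on a log axis, with 1 point per library and dotted lines that only join the points of a gene. *Cdh5* and *Pecam1* lie nearly level, the capillary genes *Kdr*, *Tek*, *Car4* and *Aplnr* are lower in both bleomycin libraries than in both saline libraries, and *Vwf* is higher in both.

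The general endothelial genes *Cdh5* and *Pecam1* were the steadiest of the 10 genes. *Cdh5*, whose product is the adhesion molecule of endothelial adherens junctions, was at 162 CPM in PBS-WT and 159.7 in PBS-HPS1, at 146 in BLEO-WT and at 174 in BLEO-HPS1. Its highest level was 1.2 times its lowest. *Pecam1*, an adhesion molecule of endothelial cell contacts that platelets and many leukocytes carry as well, was at 182 CPM in PBS-WT and 172 in PBS-HPS1, at 176 in BLEO-WT and at 203 in BLEO-HPS1. Its highest level was 1.18 times its lowest, the narrowest range of the group. The log2 ratio of BLEO-WT to PBS-WT was -0.15 for *Cdh5* (interval -0.19 to -0.11) and -0.048 for *Pecam1* (-0.082 to -0.014). In Hps1-/- mice the ratios of BLEO-HPS1 to PBS-HPS1 were 0.13 for *Cdh5* and 0.24 for *Pecam1*, and neither gene came near 2-fold. The sign of these small ratios depends on the scaling, since over the scalings and the correction tried the ratio in Hps1-/- mice ran from -0.52 to 0.14 for *Cdh5* and from -0.41 to 0.24 for *Pecam1*.

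*Cldn5*, the main claudin of endothelial tight junctions, was level in 3 libraries and higher in the 4th. It was at 110.2 CPM in PBS-WT and 107 in PBS-HPS1, at 114 in BLEO-WT and at 209.6 in BLEO-HPS1. The ratio of BLEO-HPS1 to PBS-HPS1 was 0.96 on the log2 scale (0.93 to 1.0), just short of 2-fold, and that to BLEO-WT was 0.88. The *Cldn5* transcripts are GC-rich, at 60.5% GC, and after correction for GC content and length the ratios were -0.093 and 0.23. With the correction the level in BLEO-HPS1 was therefore no longer above that in PBS-HPS1.

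*Kdr* and *Tek*, growth factor receptors of endothelium, were lower after bleomycin in both genotypes, short of 2-fold. *Kdr* encodes VEGF receptor 2, through which VEGF-A drives endothelial growth and survival. Its level was 107 CPM in PBS-WT and 92.3 in PBS-HPS1, against 57.4 in BLEO-WT and 51.8 in BLEO-HPS1. Both bleomycin libraries lay below both saline libraries, with log2 ratios of -0.89 in wild-type and -0.83 in Hps1-/- mice. After correction the ratio was -0.82 in wild-type and -0.31 in Hps1-/- mice, whereas with total counts alone *Kdr* passed 2-fold in both (-1.16 and -1.48). *Tek*, which encodes the angiopoietin receptor Tie2, was at 56.0 CPM in PBS-WT and 53.3 in PBS-HPS1, at 37.9 in BLEO-WT and at 32.4 in BLEO-HPS1. It followed the order of *Kdr* on a smaller scale, with log2 ratios of -0.56 and -0.72, and of -0.42 and -0.13 after correction.

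*Aplnr*, the receptor of apelin and a marker of general capillary cells, fell in both genotypes and had the widest range of the 10 genes. It was at 10.3 CPM in PBS-WT (803 reads) and 6.27 in PBS-HPS1 (621 reads), at 3.33 in BLEO-WT (261 reads) and at 2.82 in BLEO-HPS1 (178 reads). The highest level was 3.66 times the lowest. The log2 ratio to saline was -1.62 in wild-type mice (-1.84 to -1.43), a 3.08-fold lower level, and -1.15 in Hps1-/- mice (-1.40 to -0.91). After correction the ratios were -1.69 and -1.21. *Aplnr* was also the lowest of the 10 genes per kilobase in each library, and it had the fewest reads.

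*Car4* encodes carbonic anhydrase 4, an enzyme on the luminal surface of lung capillaries that turns bicarbonate into carbon dioxide. It was at 158 CPM in PBS-WT and 139 in PBS-HPS1, at 77.8 in BLEO-WT and at 100.4 in BLEO-HPS1. It fell in wild-type mice, with a log2 ratio of -1.02 that lies at the 2-fold limit (-1.06 to -0.97), whereas in Hps1-/- mice the ratio was -0.47 (-0.51 to -0.43). After correction the ratios were nearly alike, -1.18 in wild-type and -1.13 in Hps1-/- mice, and both then passed 2-fold. *Car4* is expressed by alveolar macrophages as well, and their genes *Marco* (73.5, 81.6, 76.3 and 53.8 CPM) and *Ear1* (214, 165, 26.7 and 14.8 CPM) were present in the same libraries. Their part in the *Car4* level was not tested.

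*Ednrb*, the endothelin B receptor and another aerocyte gene, did not follow *Car4*. It was at 23.6 CPM in PBS-WT and 16.7 in PBS-HPS1, at 28.6 in BLEO-WT and at 11.6 in BLEO-HPS1. The log2 ratio to saline was 0.28 in wild-type mice (0.19 to 0.37) and -0.53 in Hps1-/- mice (-0.66 to -0.41), and after correction both were positive, 0.60 and 0.34. Its transcripts have the lowest GC content of the 10 genes, 43.9%. Reads of *Ednrb* per read of *Car4* were 0.149, 0.120 and 0.368 in PBS-WT, PBS-HPS1 and BLEO-WT, and 0.115 in BLEO-HPS1. This uncorrected ratio of aerocyte genes was thus highest in BLEO-WT. With corrected values *Ednrb* was higher and *Car4* (-1.18 and -1.13) lower with bleomycin in both genotypes.

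On GRCm38, in the GENCODE M21 annotation, *Kdr* spans chr5:75932827-75978458 on the minus strand, and *Tek* spans chr4:94739289-94874976, *Aplnr* chr2:85136225-85139923, *Car4* chr11:84957786-84966044 and *Vwf* chr6:125546774-125686679 on the plus strand. For *Kdr*, *Tek* and *Car4*, which were lower together in the bleomycin libraries, the 250 bases before the transcription start are shown. Sequences were from RefSeq on GRCm38.p6, in which 5 of the 10 genes had an entry, and read 5′ to 3′ on the strand of the gene. Capitals mark ACAAAG, a core that SOX factors bind.
Kdr, chr5:75978456-75978705, minus strand: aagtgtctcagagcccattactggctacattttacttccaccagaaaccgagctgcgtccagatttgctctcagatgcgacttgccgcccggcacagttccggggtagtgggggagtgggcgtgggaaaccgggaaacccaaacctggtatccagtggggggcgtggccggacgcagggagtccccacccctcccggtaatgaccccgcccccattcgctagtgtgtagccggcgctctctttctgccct
Tek, chr4:94739039-94739288, plus strand: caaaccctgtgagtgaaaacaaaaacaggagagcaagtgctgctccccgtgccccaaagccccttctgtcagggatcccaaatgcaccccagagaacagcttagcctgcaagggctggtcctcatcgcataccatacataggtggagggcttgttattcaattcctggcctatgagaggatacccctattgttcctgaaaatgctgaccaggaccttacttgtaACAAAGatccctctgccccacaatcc
Car4, chr11:84957504-84957753, plus strand: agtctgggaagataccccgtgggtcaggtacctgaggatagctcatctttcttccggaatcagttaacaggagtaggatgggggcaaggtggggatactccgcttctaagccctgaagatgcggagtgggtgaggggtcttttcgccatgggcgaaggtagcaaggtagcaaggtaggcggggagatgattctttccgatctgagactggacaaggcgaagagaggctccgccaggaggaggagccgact
Both strands of the 5 windows were searched for this core, which was found in *Tek* alone. AGGAAG, a single form of the ETS core, was found in 0 of the 5 windows. AGATAA, a form of the GATA core, was likewise found in 0 of them, and the 3 searched sequences do not overlap one another in these windows. Other forms of these cores were not searched, so a count of 0 does not mean that a window lacks sites for these factors. Of 32851 mouse promoter windows of the same length, 29.5% held AGGAAG, 9.99% AGATAA and 16.5% ACAAAG. The *Kdr* window was rich in CG dinucleotides, with 16 and a GC content of 61.6%, and the *Tek* window held 2 at a GC content of 51.2%.

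*Vwf*, a gene of larger vessels, went the other way. It encodes von Willebrand factor, which endothelial cells store in Weibel-Palade bodies and which binds platelets at sites of injury. The level of *Vwf* was 146 CPM in PBS-WT and 131 in PBS-HPS1, against 299 in BLEO-WT and 373 in BLEO-HPS1. Both bleomycin libraries lay above both saline libraries. *Vwf* rose in both genotypes, with log2 ratios of 1.03 in wild-type mice (1.0 to 1.06), which lies at the 2-fold limit, and 1.51 in Hps1-/- mice (1.48 to 1.54). After correction both ratios were larger, 1.13 and 1.81. With total counts alone they were 0.77 and 0.87, under 2-fold.

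Megakaryocytes and platelets hold *Vwf* as well. Of the 8 tested genes of a platelet list, 1 rose and 1 fell in wild-type mice given bleomycin, and 1 rose and 4 fell in Hps1-/- mice. Of all tested genes, 5.28% rose and 8.22% fell in wild-type mice, and 26.2% and 19.6% in Hps1-/- mice. After correction 1 gene of the list rose and 2 fell in wild-type mice, beside 5.54% and 5.56%. In Hps1-/- mice 2 then rose and 5 fell, beside 18.2% and 8.32%. The summed level of this list was 62.7, 47.2, 56.5 and 46.8 CPM, somewhat lower with bleomycin in wild-type mice and nearly the same in Hps1-/- mice. Its part in the *Vwf* level was not tested. The gene that rose without correction was *Pf4*, a chemokine of platelets that macrophages can express, at 9.89, 5.99, 32.0 and 30.9 CPM. *Itga2b*, the platelet integrin, was at 15.3, 14.5, 7.66 and 3.77 CPM.

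*Plvap*, which forms the diaphragms of endothelial fenestrae and caveolae, stood apart in a single library. It was at 87.6 CPM in PBS-WT and 94.2 in PBS-HPS1, at 94.5 in BLEO-WT and at 257 in BLEO-HPS1. The first 3 values lie within 1.08-fold of one another, while BLEO-HPS1 was 2.73-fold above PBS-HPS1 (log2 ratio 1.45, interval 1.41 to 1.48) and 2.72-fold above BLEO-WT (1.44, interval 1.40 to 1.48). *Plvap* transcripts have the highest GC content of the 10 genes, 60.6%. After correction the log2 ratios were 0.57 and 0.87, still positive and below 2-fold.

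**Figure D2:**
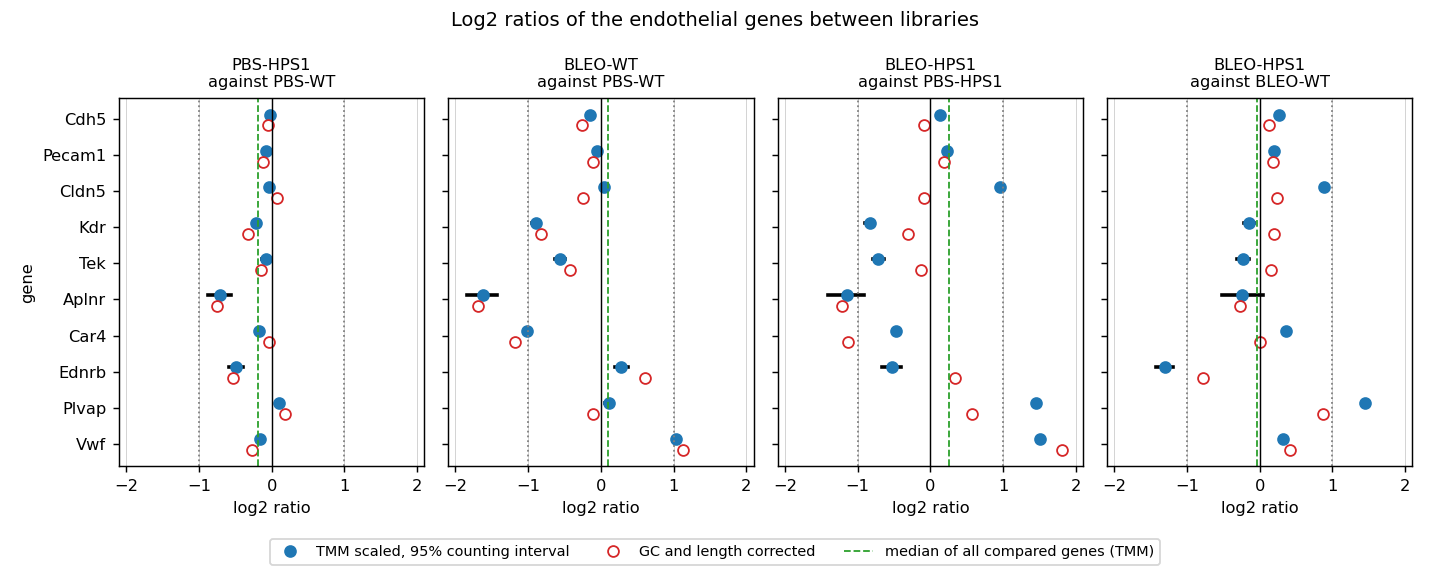
Log2 ratio of each of the 10 genes in the 4 comparisons, uncorrected (filled, with exact 95% counting intervals) and after correction for GC content and length (open), with the 2-fold limits dotted and the median of all tested genes dashed. *Vwf* lies near or beyond 2-fold above and *Aplnr* beyond 2-fold below in both bleomycin comparisons with either set of values, whereas *Plvap*, *Cldn5* and *Ednrb* move toward 0 with the correction in the comparison of the bleomycin libraries.

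In saline-treated mice the genotypes differed little in these genes. Between PBS-HPS1 and PBS-WT, 0 of 10 genes were at least 2-fold apart, beside 5.27% of the 14840 tested genes (2.16% higher and 3.11% lower in PBS-HPS1), and 0 were so after the correction, beside 2.06% higher and 2.98% lower. The median log2 ratio was -0.12, against -0.19 over all tested genes. The ratios ran from -0.71 for *Aplnr* (-0.87 to -0.56) and -0.49 for *Ednrb* (-0.59 to -0.40) to 0.11 for *Plvap*. The other 7 genes lay between -0.21 and -0.017. The general median of -0.19 belongs to the scaling, and relative to it 7 of 10 genes were above.

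Between BLEO-WT and PBS-WT, 3 of 10 genes were at least 2-fold apart, beside 13.5% of tested genes. *Vwf* rose, beside 5.28% of tested genes that were at least 2-fold higher. *Aplnr* and *Car4* fell, beside 8.22% of tested genes at least 2-fold lower. The median log2 ratio of the 10 genes was -0.099, against 0.094 over all tested genes. With the correction the same 3 genes passed 2-fold, beside 5.54% of genes higher and 5.56% lower.

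Between BLEO-HPS1 and PBS-HPS1, 3 of 10 genes were at least 2-fold apart, beside 45.9% of tested genes. *Plvap* and *Vwf* rose, where 26.2% of tested genes were at least 2-fold higher. *Aplnr* fell, where 19.6% were at least 2-fold lower. The median log2 ratio was -0.17, against 0.25 over all tested genes. With the correction *Vwf* rose, beside 18.2% of genes, and *Aplnr* and *Car4* fell, beside 8.32%. The corrected calls were thus those of the wild-type comparison.

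Between BLEO-HPS1 and BLEO-WT, 2 of 10 genes were at least 2-fold apart, beside 17.0% of tested genes. *Plvap* was higher in BLEO-HPS1, beside 6.72% of tested genes. *Ednrb* was lower, with a log2 ratio of -1.31 (-1.43 to -1.19), beside 10.3% of tested genes. After correction the ratios were 0.87 and -0.78, and 0 of 10 genes passed 2-fold, beside 5.34% of genes higher and 4.17% lower. The ratio of *Aplnr* between these libraries, -0.24, was within its counting interval of 0 (-0.52 to 0.040). *Vwf* was at 0.32 and *Car4* at 0.37, or 0.41 and 0.0075 after correction. The 4 comparisons share libraries, so their values are not independent of one another.

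The bleomycin ratio in Hps1-/- mice minus that in wild-type mice was above 0 for 8 of the 10 genes, with a median of 0.38 against 0.15 over all tested genes. It was greatest for *Plvap* (1.34) and *Cldn5* (0.92), at 0.48 for *Vwf*, 0.060 for *Kdr* and lowest for *Ednrb* (-0.81). After correction it was 0.68 for *Plvap*, 0.15 for *Cldn5*, 0.67 for *Vwf*, 0.51 for *Kdr* and -0.26 for *Ednrb*. No replicate spread stands behind these differences, and they were not tested.

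**Figure D3:**
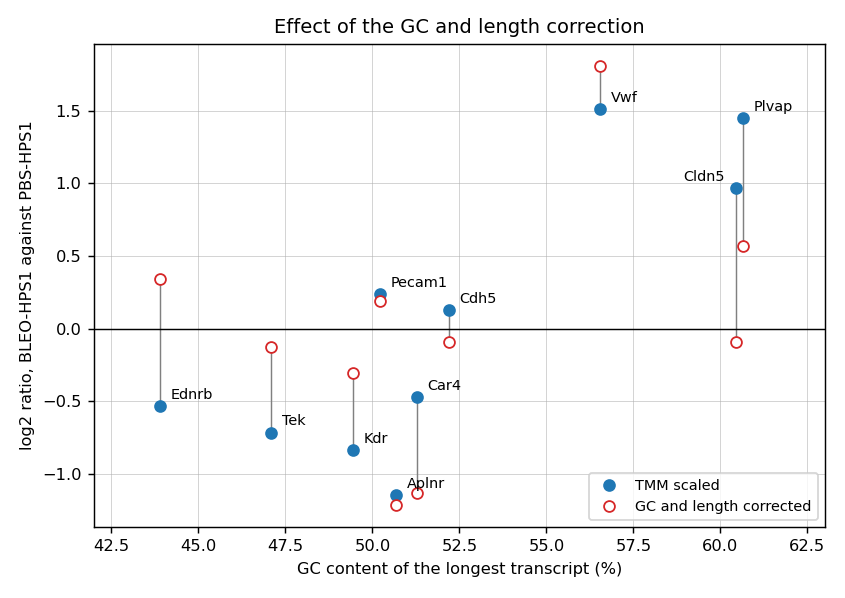
Log2 ratio of BLEO-HPS1 to PBS-HPS1 for each of the 10 genes against the GC content of its longest transcript in percent, with filled points for TMM-scaled ratios, open points for ratios corrected for GC content and length, and a line that joins the points of a gene. The correction lowers the ratios of the GC-rich *Plvap* and *Cldn5* and raises those of *Ednrb*, *Tek* and *Kdr*, while *Vwf* stays above 1 and *Aplnr* below -1.

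To take library scaling out of the comparison, reads of each gene were set against reads of *Cdh5* in the same library. Per read of *Cdh5* there were 1.13 reads of *Pecam1* in PBS-WT and 1.08 in PBS-HPS1, with 1.21 in BLEO-WT against 1.16 in BLEO-HPS1, nearly the same in each. *Kdr* went from 0.660 and 0.578 in the saline libraries to 0.394 in BLEO-WT and 0.297 in BLEO-HPS1. *Tek* went from 0.346 and 0.334 to 0.260 and 0.186. *Car4* and *Kdr* thus both lost ground to *Cdh5*, with *Car4* at 0.975 and 0.872 with saline and at 0.534 and 0.575 with bleomycin.

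*Aplnr* had 0.0637 reads per read of *Cdh5* in PBS-WT and 0.0393 in PBS-HPS1, and with bleomycin 0.0228 in BLEO-WT against 0.0161 in BLEO-HPS1. *Vwf* had 0.905 and 0.818 in the saline libraries and 2.05 and 2.14 in the bleomycin libraries. *Plvap* had 0.542, 0.590 and 0.648 in the first 3 libraries and 1.47 in BLEO-HPS1. Relative to *Cdh5*, 8 of the 9 other genes thus had a bleomycin ratio of the same sign in both genotypes, 4 upward (*Pecam1*, *Cldn5*, *Plvap* and *Vwf*) and 4 downward (*Kdr*, *Tek*, *Aplnr* and *Car4*), and *Ednrb* differed. With corrected values it was also 8 of 9, with *Ednrb* upward in both genotypes and *Cldn5* at 0.014 and -0.0014, close to no change. *Tek* was then at -0.16 in wild-type and -0.034 in Hps1-/- mice, and *Kdr* at -0.56 and -0.21.

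Pairs of genes, picked after their values were seen, were also set against each other within a library. Reads of *Vwf* per read of *Car4* were 0.927 in PBS-WT (0.904 to 0.951) and 0.939 in PBS-HPS1 (0.917 to 0.962), against 3.84 in BLEO-WT (3.74 to 3.95) and 3.71 in BLEO-HPS1 (3.61 to 3.82). The intervals of the saline libraries overlapped, as did those of the bleomycin libraries. These reads are not corrected for GC content and length. After correction the log2 ratio of *Car4* to saline was nearly alike in the genotypes (-1.18 in wild-type and -1.13 in Hps1-/- mice). That of *Vwf* was larger in Hps1-/- mice (1.81) than in wild-type mice (1.13), so the likeness of the genotypes holds for uncorrected reads. Reads of *Plvap* per read of *Kdr* were 0.821 and 1.02 with saline, 1.65 in BLEO-WT and 4.96 in BLEO-HPS1. That ratio joins a GC-rich gene to one at 49.4% GC.

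**Figure D4:**
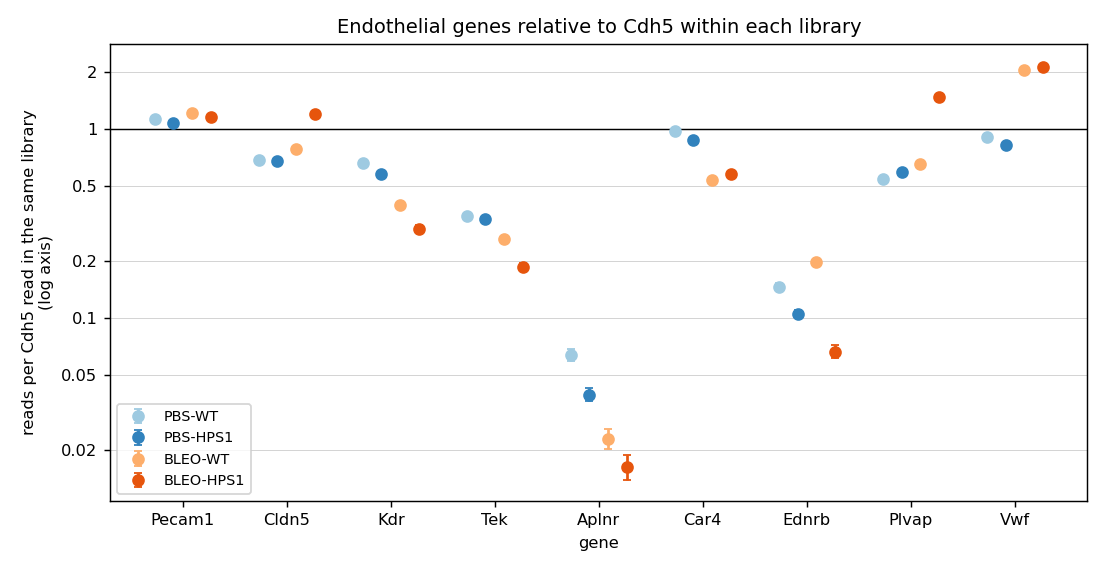
Reads of each gene per read of *Cdh5* within each library, on a log axis, for 9 genes and 4 libraries (colours), with exact 95% counting intervals that are mostly smaller than the points. *Pecam1* stays level, *Vwf* goes from just under 1 read in the saline libraries to just over 2 in the bleomycin libraries, and *Kdr*, *Tek*, *Car4* and *Aplnr* lie lower in the bleomycin libraries.

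Levels of different genes were compared per kilobase of exons. In PBS-WT the order began with *Car4* at 80.2 CPM per kilobase and *Cldn5* at 77.8, followed by *Plvap* at 44.1, *Cdh5* at 38.5 and *Pecam1* at 29.3. *Tek* (11.9), *Kdr* (11.8), *Vwf* (9.10), *Ednrb* (5.52) and *Aplnr* (2.78) came after them. In BLEO-HPS1 *Cldn5* (148) and *Plvap* (129) led, *Car4* was at 51.1, *Vwf* at 23.2 and *Kdr* at 5.73. Neighbours such as *Car4* and *Cldn5*, or *Tek* and *Kdr*, cannot be ordered with 1 library. With the length of the longest transcript in place of all exons, *Pecam1* stood above *Cdh5* in each library, at 53.0 against 40.5 CPM per kilobase in PBS-WT.

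The counts of the gene lists that follow are to be read against the shares of all tested genes. With bleomycin 5.28% were at least 2-fold higher and 8.22% lower in wild-type mice, and 26.2% and 19.6% in Hps1-/- mice. After correction these shares were 5.54% and 5.56% in wild-type and 18.2% and 8.32% in Hps1-/- mice. With counts this small, a list whose share lies near these is no result about the list.

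Of the VEGF system, the ligand *Vegfa* was at 55.1 CPM in PBS-WT and 71.4 in PBS-HPS1, at 82.7 in BLEO-WT and at 39.2 in BLEO-HPS1. Its log2 ratio to saline was 0.59 in wild-type mice, where its receptor *Kdr* was at -0.89. In Hps1-/- mice the ratio was -0.87, close to that of *Kdr* (-0.83). After correction *Vegfa* was at 0.51 in wild-type and -0.99 in Hps1-/- mice. *Flt1*, the VEGF receptor 1 that also acts as a decoy for VEGF-A, was at 177 CPM in both saline libraries, 77.2 in BLEO-WT and 51.4 in BLEO-HPS1. It fell in both genotypes, with log2 ratios of -1.20 and -1.78, and of -1.12 and -1.19 after correction. Of the 4 tested receptors and coreceptors other than *Kdr*, *Flt1* was the one that fell in each bleomycin comparison and 0 rose. Of the 5 tested ligands, 2 rose and 0 fell in each genotype. These were *Pgf* and *Vegfd*, which were low, at most 11.9 and 11.8 CPM (log2 ratios 1.0 and 1.78 for *Pgf*, 1.14 and 1.81 for *Vegfd*). After correction *Pgf* was at 0.78 in wild-type mice, below 2-fold, and at 1.02 in Hps1-/- mice, and *Vegfd* was at 1.22 and 1.97. *Flt4*, the receptor of lymphatic endothelium, was at 37.9, 71.7, 54.0 and 96.3 CPM.

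Of the angiopoietin system, the Tie2 ligands *Angpt1* and *Angpt2* were both low, at 1.98 to 5.55 and 3.58 to 5.91 CPM. *Angpt1*, the agonist, had log2 ratios to saline of -0.92 in wild-type and -1.33 in Hps1-/- mice, and of -0.23 and 0.11 after correction. Of the 5 tested genes of this system other than *Tek*, 0 passed 2-fold in wild-type mice, and 1 rose and 2 fell in Hps1-/- mice. After correction 1 rose and 0 fell in each genotype, so that both falls were lost. *Tie1*, the coreceptor of Tie2, was at 73.0, 74.3, 68.9 and 118 CPM. *Ptprb*, the phosphatase that holds Tie2 in check, was at 129.7, 132, 111 and 57.7 CPM, with a log2 ratio of -0.22 in wild-type mice and -1.19 in Hps1-/- mice. After correction these were 0.15 and 0.14. *Tie1* and *Tek*, receptors of the same family, therefore differed in BLEO-HPS1, where *Tek* was at its lowest and *Tie1* at its highest. After correction the ratio of BLEO-HPS1 to PBS-HPS1 was -0.13 for *Tek* and 0.16 for *Tie1*.

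*Apln*, the ligand of the apelin receptor and itself an aerocyte gene, was at 11.8 CPM in PBS-WT and 8.14 in PBS-HPS1, at 2.97 in BLEO-WT and at 5.64 in BLEO-HPS1. It fell in wild-type mice (log2 ratio -1.99) and was at -0.53 in Hps1-/- mice, or -2.1 and -0.86 after correction. Ligand and receptor were thus both lower with bleomycin in both genotypes. The other ligand, *Apela*, had a level of at most 0.0606 CPM and was not tested.

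Of the 5 tested genes of the endothelin system other than *Ednrb*, 0 passed 2-fold in wild-type mice, and 1 rose and 0 fell in Hps1-/- mice. After correction 2 rose and 1 fell in Hps1-/- mice. *Edn1* was at 5.85, 9.39, 8.70 and 9.10 CPM and *Edn2* had 0 reads in each library, which allows a level of up to 0.0303 to 0.0475 CPM (the 3 reads that a count of 0 allows). *Ece1*, which makes the active peptide, was at 109.6, 111, 135 and 135 CPM. *Ednra*, the A receptor of smooth muscle, was at 3.35, 5.02, 5.57 and 9.58 CPM and had its highest level in the library where *Ednrb* had its lowest.

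Of 32 tested genes of a wider endothelial list, 0 rose and 4 fell in wild-type mice, and 6 rose and 7 fell in Hps1-/- mice. After correction 0 rose and 2 fell in wild-type mice, and 3 rose and 1 fell in Hps1-/- mice. Its median log2 ratios were -0.16 and -0.061, and 0.00037 and 0.21 after correction. The most abundant of them were the ALK1 receptor *Acvrl1* (189, 156, 189 and 299.6 CPM), *Adgrf5* (238, 245, 212 and 129 CPM), the sphingosine 1-phosphate receptor *S1pr1* (175, 193, 176 and 134 CPM) and endoglin, *Eng* (95.1, 105, 142 and 234 CPM). *Eng* rose in Hps1-/- mice (1.16), and *Acvrl1*, which acts with it, was at 0.94, but after correction they were at 0.59 and 0.41, below 2-fold. The list did not move as one, as the 10 genes did not.

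Of 13 genes of general capillary cells, 2 rose and 3 fell in wild-type mice and 4 rose and 5 fell in Hps1-/- mice. After correction 1 rose and 0 fell in wild-type mice and 4 rose and 0 fell in Hps1-/- mice, so that none of the falls remained past 2-fold. *Lpl*, which macrophages express as well, fell from 957 CPM in PBS-WT to 378 in BLEO-WT and from 448 in PBS-HPS1 to 176 in BLEO-HPS1, and its corrected ratios were -0.99 and -0.42. *Gpihbp1*, the capillary anchor of lipoprotein lipase, rose, from 15.8 to 33.5 and from 16.4 to 59.0 CPM, and its corrected ratios were 0.88 and 1.08. *Sema3c* fell in both genotypes (-1.39 and -2.06) but was at -0.91 and -0.80 after correction, and *Kit*, a marker of the same cells, was at 34.8, 34.9, 31.2 and 35.2 CPM.

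Of 15 aerocyte genes, 0 rose and 5 fell in wild-type mice and 1 rose and 2 fell in Hps1-/- mice. After correction 0 rose and 3 fell in wild-type mice and 1 rose and 1 fell in Hps1-/- mice. The genes that fell in wild-type mice were *Apln*, *Kitl*, *Scn7a*, *Rprml* and *Tmeff2*, and these were picked out after their values were seen. After correction *Kitl* (-0.75) and *Tmeff2* (-0.72) were below 2-fold in wild-type mice. The most abundant, *Sirpa*, *Emp2*, *Nrp1* and *Cd24a*, which myeloid or epithelial cells also express, had ratios between -0.14 and 0.71 in wild-type mice. The median was 0.022 in wild-type and 0.33 in Hps1-/- mice, and -0.090 and 0.17 after correction.

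Of 15 tested artery genes, 1 rose and 2 fell in wild-type mice and 5 rose and 3 fell in Hps1-/- mice. After correction 1 rose and 2 fell in wild-type mice and 4 rose and 2 fell in Hps1-/- mice. *Mgp*, a matrix protein that fibroblasts and smooth muscle make as well, was at 28.9, 51.6, 100.6 and 505 CPM. *Efnb2*, the ligand that marks arterial endothelium, was at 37.2, 51.3, 34.9 and 16.1 CPM and fell in Hps1-/- mice (-1.67, or -1.51 after correction). Of 14 vein genes, 2 rose and 1 fell in wild-type mice and 4 rose and 1 fell in Hps1-/- mice. After correction 2 rose and 1 fell in wild-type mice and 5 rose and 1 fell in Hps1-/- mice. *Vcam1*, the adhesion molecule of activated venules, was at 13.0, 12.0, 42.4 and 25.0 CPM and rose in both genotypes, also after correction (2.32 and 2.37), and *Ephb4*, the venous receptor of *Efnb2*, was at 30.2, 37.6, 36.0 and 69.0 CPM.

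**Figure D5:**
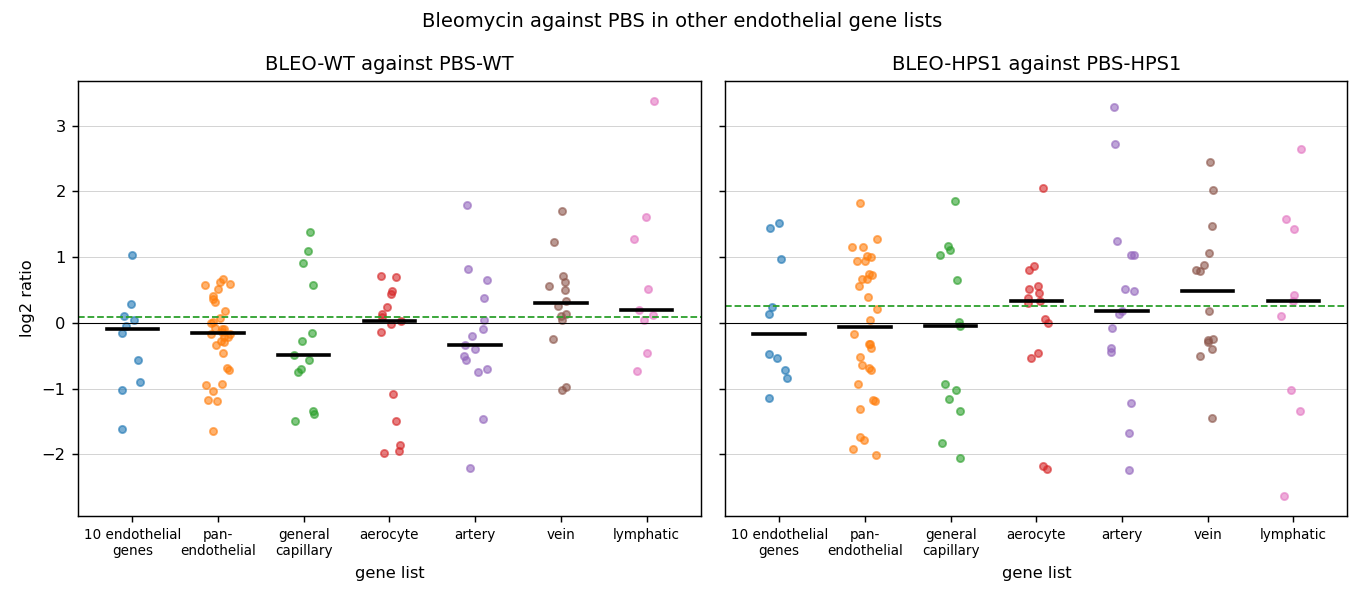
Log2 ratios to saline of the genes of the endothelial lists in wild-type and Hps1-/- mice, 1 point per tested gene, spread sideways at random. Black bars are the medians of the lists and the dashed line is the median of all tested genes (0.094 in wild-type and 0.25 in Hps1-/- mice), and in each list genes lie on both sides of 0.

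Of 22 transcription factors known in endothelium, 0 rose and 1 fell in wild-type mice and 0 rose and 3 fell in Hps1-/- mice, with median log2 ratios of -0.17 and -0.40. After correction 0 rose and 1 fell in wild-type mice and 0 rose and 5 fell in Hps1-/- mice. *Epas1*, which encodes HIF-2 alpha and is expressed highly in lung capillaries, was at 388, 418, 369 and 171 CPM. *Klf2*, the factor induced by blood flow, was at 327, 335, 336 and 378 CPM. *Erg*, which keeps endothelial cells in their fate, had log2 ratios of -0.60 and -0.87, and of -0.67 and -1.02 after correction.

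The relatives of *Car4* and *Cldn5* showed no common direction. The 15 other carbonic anhydrases in the table summed to between 36.5 and 46.4 CPM, and of 11 tested, 3 rose and 2 fell in wild-type mice and 4 rose and 1 fell in Hps1-/- mice. Of 11 tested claudins and tight junction genes other than *Cldn5*, 1 rose and 3 fell in wild-type mice and 1 rose and 2 fell in Hps1-/- mice. After correction the counts were 3 and 3 and then 4 and 1 for the carbonic anhydrases, and 1 and 3 in each genotype for the claudins. *Cldn18*, the claudin of alveolar epithelium, was at 30.0, 30.9, 26.2 and 27.4 CPM, and *Tjp1*, which encodes the scaffold ZO-1, was at 37.8, 44.4, 23.8 and 14.5 CPM, with log2 ratios of -0.67 and -1.62 and of -0.40 and -0.60 after correction.

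Genes of other lung cells were in the libraries too, and the levels of some of their lists differed between libraries. The 6 tested erythroid genes rose in BLEO-HPS1, where 26.2% of all tested genes did, and 2 of them did so after correction, beside 18.2%. In this library their sum was 771 CPM against 222 to 276 in the other 3, and *Plvap* and *Cldn5* were highest there too. Of 14 fibroblast genes, 6 rose in wild-type and 12 in Hps1-/- mice and 0 fell, and 8 and 11 rose after correction, with *Col1a1* at 38.2, 75.1, 169.9 and 982 CPM. Of 13 tested pericyte and smooth muscle genes, 8 rose and 0 fell in Hps1-/- mice, and 5 rose after correction, with sums of 68.1, 87.2, 97.5 and 172 CPM.

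Of 16 genes of alveolar epithelium, 0 rose and 4 fell in wild-type mice and 1 rose and 8 fell in Hps1-/- mice (5 and 8 fell and 0 rose after correction), with sums of 1625, 1223, 1097 and 810.1 CPM. Of 15 macrophage genes, 6 rose in each genotype and 1 and 3 fell, with sums of 17292, 12559, 24473 and 22925 CPM. After correction 4 rose and 1 fell in wild-type mice, and 5 rose and 2 fell in Hps1-/- mice. Of 4 tested mesothelial genes, 0 rose and 1 fell in each genotype, also after correction. The 10 neutrophil genes were at least 2-fold lower in PBS-HPS1 than in PBS-WT, beside 3.11% of tested genes. After correction 10 were so too, beside 2.98%. In that comparison *Aplnr* (-0.71) and *Ednrb* (-0.49) were the lowest of the endothelial genes by log2 ratio, short of 2-fold. Markers of several other cell types thus moved with the library, and their part in the endothelial values was not tested.

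Likeness of pattern was measured as the distance between log2 CPM values centred over the 4 libraries. Among the 10 genes, *Cdh5* and *Pecam1* were closest (0.12), followed by *Kdr* and *Tek* (0.25), *Kdr* and *Car4* (0.39), *Tek* and *Car4* (0.44), and *Cldn5* and *Plvap* (0.49). *Aplnr* and *Vwf* were the most distant pair (2.71). Among 11144 genes searched, those nearest to *Cdh5* were *F2rl1*, *Ripply3* and *Pced1b*, at distances of 0.014 to 0.042, and those nearest to *Pecam1* were *Klc1*, *BC017643* and *Rhou*. Nearest to *Aplnr* were *Epcam*, *Gbp6* and *Cd226*. The genes nearest to *Vwf* were *Def8*, *Fbxw9* and *Slc39a1*, and those nearest to *Plvap* were *Ddah2*, *Il33* and *Fxyd6*. With 4 values per gene, many genes lie close to any pattern, and these names are a description only.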

How the data were processed

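ILC2s were sorted from mouse lungs, cultured with IL-2 and sequenced, with 1 library per group made with a SMARTER mRNA kit, and groups were taken from the sample labels. The authors deposited raw counts, in whole reads for each Ensembl gene, with no scaling. The aligner, counting tool and genome build were not given in the sources used here. The gene list, the 24 other lists and the tests were chosen with earlier results of these data known.

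Counts of the whole table were scaled with TMM factors (edgeR 4.0.16, R 4.3.3), which ran from 0.816 to 1.27. Log2 ratios used a prior count of 2. Genes with at least 1 CPM in at least 1 library were tested against the 2-fold limit, 14840 of 49315. Without replicates no model was fitted, no p-value was computed and the spread between samples is unknown. Intervals are exact Clopper-Pearson intervals at 95%, and since PCR copies are not independent molecules, both these and the 3-read floor speak of counting error alone.

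GENCODE M21 (GRCm38) gave lengths and GC content for 14813 tested genes, which entered a loess correction (span 0.3). Named genes were the 10 genes, genes of their ligand and receptor systems and up to 4 genes of highest mean CPM per list. In some lists, among them general capillary, artery and vein, several of the most abundant genes were left unnamed. Others named are examples chosen after their values were seen. The reads of near-identical genes such as the globins may have been shared in counting. The steps were tested on simulated data. Alternatives were DESeq2 1.42.0 size factors, total counts, upper-quartile factors, other prior counts, filters and thresholds, other lengths, and, added after the data were seen, TMM factors from tested genes only.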

Additional observations from a re-analysis of the deposited data

Results flagged for a closer look

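The bleomycin log2 ratios had opposite signs in the genotypes for 3 genes, and the difference was not tested, since each group had 1 library. For *Cdh5* the ratio was -0.15 in wild-type and 0.13 in Hps1-/- mice, a difference of 0.28, and after correction for GC content and length both were negative (-0.26 and -0.092). For *Pecam1* the ratios were -0.048 and 0.24, a difference of 0.28, and -0.10 and 0.19 after correction. For *Ednrb* they were 0.28 and -0.53, a difference of -0.81, and after correction both were positive (0.60 and 0.34).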

How the results depend on the processing

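The median log2 ratio of the 10 genes followed the scaling. Between PBS-HPS1 and PBS-WT it was above 0 with total counts (0.12), upper-quartile factors (0.049) and TMM factors from tested genes (0.042, added after the data were seen). Between BLEO-WT and PBS-WT it was -0.36 with total counts, -0.25 with the loess correction and -0.19 with TMM factors from tested genes. Between BLEO-HPS1 and PBS-HPS1 it was -0.82, -0.093 and -0.41 under the same 3 settings and -0.23 with upper-quartile factors. Between BLEO-HPS1 and BLEO-WT it was 0.29 with DESeq2 size factors, 0.098 with total counts, 0.33 with upper-quartile factors and 0.17 with loess. Less the median of all tested genes, it was 0.071, -0.19, -0.42 and 0.27 in these 4 comparisons with DESeq2 size factors, and 0.079, -0.38, -0.38 and 0.20 with loess. Of 40 single ratios, 1 changed sign with DESeq2 size factors, 11 with total counts, 5 with upper-quartile factors, 8 with loess, 7 with TMM factors from tested genes and 0 with the other prior counts and filters.

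At a limit of 2 on the log2 scale, 0 of the 10 genes passed in any of the 4 comparisons. With total counts 5 genes passed 2-fold between BLEO-HPS1 and PBS-HPS1, all lower (*Kdr*, *Tek*, *Aplnr*, *Car4* and *Ednrb*), and with loess 0 passed between BLEO-HPS1 and BLEO-WT. Each group had 1 library, so leaving one out was not run. No paired analysis was possible because no group held more than 1 library. Depth limits *Aplnr* most, with 178 reads in BLEO-HPS1.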

Other observations

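Most genes of lymphatic endothelium were higher in PBS-HPS1 than in PBS-WT, the comparison in which 0 of the 10 genes of blood vessels passed 2-fold. *Prox1*, the factor that sets lymphatic fate, was at 7.95 CPM in PBS-WT and 15.0 in PBS-HPS1, with a log2 ratio of 0.91. *Flt4* was at 0.92, *Mmrn1* at 0.88, *Lyve1* at 0.71, *Reln* at 1.05 and *Nts*, a low gene of at most 1.81 CPM, at 1.30. The median of the 9 tested lymphatic genes was 0.88 (0.72 after correction), and for 2 of them the ratio passed 2-fold, beside 2.16% of tested genes. After correction 1 did, beside 2.06%, and *Reln* was at 0.79. *Thy1*, which is in the list and was used to sort the cells, was at -0.57. Over the wider endothelial list the median was 0.0088. In the same comparison the medians of the fibroblast, pericyte and neutrophil lists were 0.64, 0.44 and -2.34, and their part in the lymphatic values was not tested. In the bleomycin libraries *Prox1* was at 4.76 CPM in BLEO-WT and 2.39 in BLEO-HPS1, while *Pdpn*, which fibroblasts and macrophages express as well, was at 101 and 93.1 CPM against 9.74 and 14.9 with saline.

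Of 9 tested genes of clotting and its control by endothelium, other than *Vwf*, 2 rose and 1 fell with bleomycin in each genotype. After correction 2 rose and 0 fell in wild-type mice, and 1 rose and 1 fell in Hps1-/- mice. *Plat*, the tissue plasminogen activator, rose from 6.34 to 17.1 CPM and from 10.8 to 32.8 CPM, also after correction (log2 ratios 1.63 and 2.25). *F8*, the factor that von Willebrand factor carries in blood, was low and fell, from 1.44 to 0.689 CPM and from 2.92 to 0.839 CPM, but after correction its log2 ratios were -0.19 and 0.14, so that the fall was lost in both genotypes. Thrombomodulin, *Thbd*, was at 184, 235, 218 and 192 CPM in the 4 libraries, from PBS-WT and PBS-HPS1 to BLEO-WT and then BLEO-HPS1.

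Of the 14 tested ILC2 genes, 2 rose and 1 fell in wild-type mice and 4 rose and 3 fell in Hps1-/- mice, and after correction 2 and 0, and 3 and 1. *Arg1*, which macrophages express as well, was at 8.34, 4.59, 387 and 257 CPM in the same order. *Il33*, the ligand of the receptor used in the sort, was at 3.48, 3.41, 3.75 and 9.39 CPM and so was highest in BLEO-HPS1, as *Plvap* was. *Ptprc*, which encodes the leukocyte antigen CD45 and was chosen outside the lists, was at 78.1 CPM per kilobase in PBS-WT and 62.8 in PBS-HPS1, at 28.9 in BLEO-WT and at 18.2 in BLEO-HPS1. *Cdh5* per kilobase was 0.493, 0.605, 1.2 and 2.28 times that level. These values depend on the summed exon lengths, 18313 bases for *Ptprc* and 4203 for *Cdh5*. Without division by length *Ptprc* was above *Cdh5* in each library, at 1430, 1151, 529 and 333 CPM against 162, 159.7, 146 and 174. *Cdh5* passing *Ptprc* with bleomycin therefore rests on the length used.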
